A study of Mus musculus with 6 samples.

Results

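The transcription factor p53 and 9 of its target genes were followed in RNA sequencing of mouse intestine: Trp53, which encodes p53, and Cdkn1a, Mdm2, Ccng1, Phlda3, Zmat3, Bbc3, Pmaip1, Bax and Fas. They were taken by symbol from a deposited table of 54446 gene identifiers, and all 10 were present. All 10 also passed the low-count filter that left 19176 genes for testing, so no member was lost to low values. The series compared 3 samples of NEC mice with 3 samples of control mice, all of genotype WT and all taken at 96 h. NEC, necrotizing enterocolitis, was modelled by gavage of 40 µl of 33% Esbilac formula at intervals of 4 h, and by hypoxia (100 s in 99.9% nitrogen) followed by cold (10 min at 4 °C), repeated at 12 h intervals. Control pups stayed with the dam and had neither hypoxia nor cold. The labels name the tissue only as intestine, and no source used here gives the segment, the exact age or the sex. Nothing in the labels says that each sample is a separate animal, so each p-value reflects sample-to-sample spread that could be technical in part.

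p53 is a sensor of DNA damage and other cell stress. In unstressed cells the ubiquitin ligase MDM2 keeps the p53 protein scarce, and stress acts mainly by stabilising the protein, so the mRNA levels of its targets are the usual readout rather than Trp53 mRNA itself. Its targets fall into those that halt the cell cycle, those that feed back on p53, and those that start apoptosis through the mitochondrion or through death receptors. In the intestine, p53 is best known for the response of crypt cells to radiation and other DNA damage.

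The 10 genes did not share a direction. None was called changed in NEC by edgeR at an adjusted p below 0.05, a call made for 0.704% of all genes tested. DESeq2, which called 7.59% of the genes it gave an adjusted p, and limma-voom, which called 0.787%, also called 0 of the 10. In the edgeR fit 3 members, Ccng1, Pmaip1 and Cdkn1a, had an unadjusted p below 0.05, against 15.6% of all genes tested. The log2 fold change, positive where NEC was higher, was above 0 for 6 members and below 0 for 4, and ran from -0.77 for Ccng1 to 1.24 for Cdkn1a. Its median was 0.035 over the members and 0.026 over all genes tested. The groups did not overlap for 1 member higher in NEC, Pmaip1, and for 2 lower in NEC, Ccng1 and Fas. Calls in 1 direction were made for 0.261% of genes tested (higher in NEC) and 0.443% (lower in NEC). Among all genes tested the groups did not overlap in 22.4%, with NEC higher in 10.8% and lower in 11.6%. At 3 samples a group, a call of 0 members does not show that they stayed level, and the 95% interval of each change is given below.

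**Figure D1:**
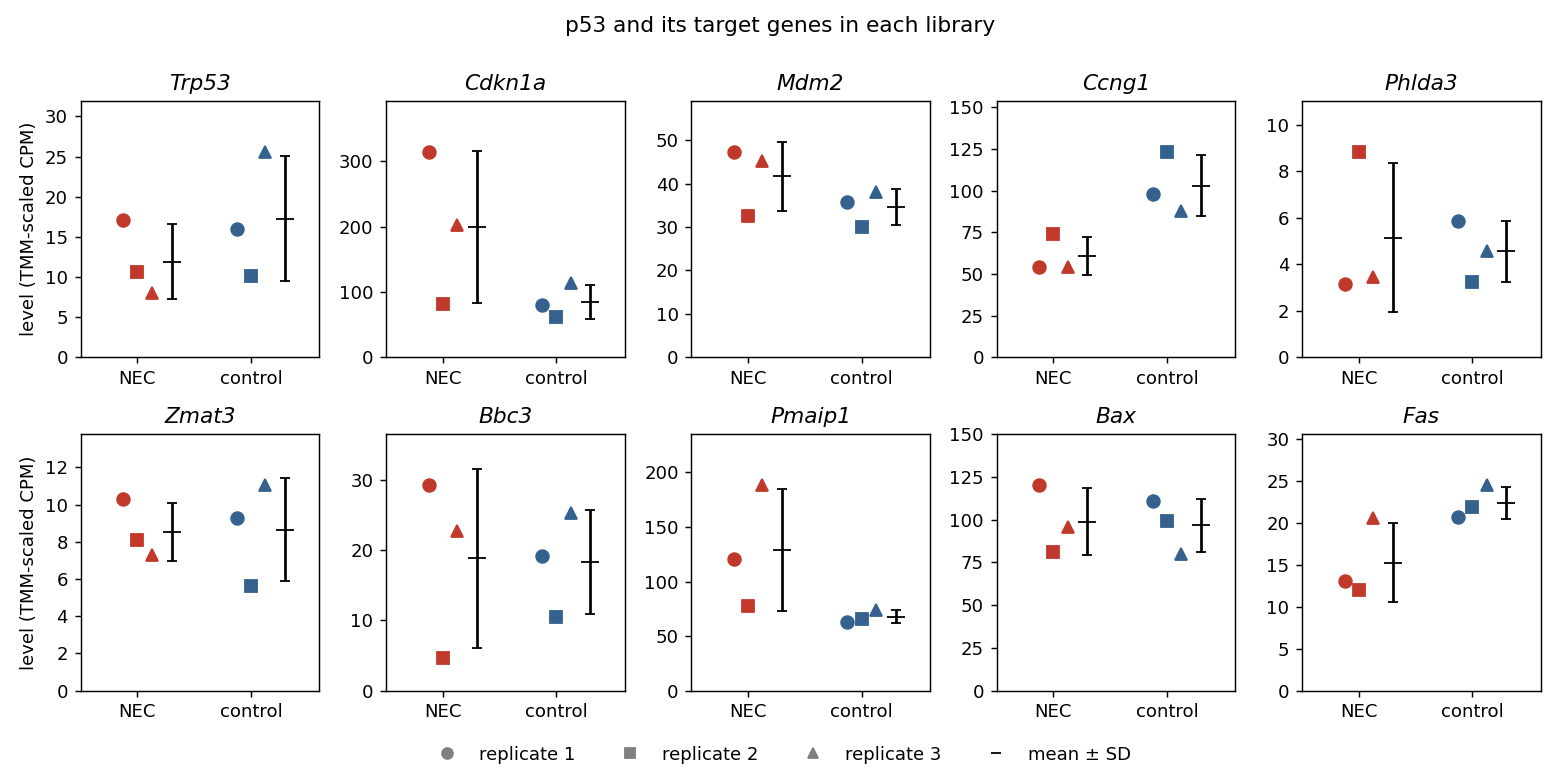
Level of each of the 10 genes (vertical axis, CPM, read counts scaled to library size by TMM) in the 3 NEC libraries on the left and the 3 control libraries on the right of each panel, with mean ± SD beside them. Pmaip1 lies above, and Ccng1 and Fas below, the control libraries in every NEC library, while Cdkn1a reaches 314 CPM in NEC replicate 1 but only 81.5 CPM in NEC replicate 2.

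The libraries held 69441184 to 106304239 counts. All held intestinal epithelium and muscle, with the epithelial adhesion gene Epcam at 1833 to 2720 CPM in NEC and 2234 to 2953 CPM in control, the intestinal factor gene Cdx2 at 132 to 219 and 190 to 245 CPM, the microvillus gene Vil1 at 585 to 1012 and 745 to 1009 CPM, and the muscle actin gene Acta2 at 262 to 847 and 205 to 447 CPM. Xist stood at 0.429 to 0.546 CPM in the NEC libraries, and at 179, 344 and 1.17 CPM in control replicates 1 to 3. The Y-linked gene Ddx3y stood at 25.6 to 44.8 CPM in the NEC libraries, and at 19.8, 1.29 and 30.9 CPM in control replicates 1 to 3, so control replicate 1 held both transcripts. Xist and Ddx3y are transcripts that differ between the sexes. Control replicates 1 and 2 thus differed from the NEC libraries in Xist as well as in treatment. What part sex had in the fold changes was not tested. NEC replicate 2 stood apart in its markers of other cells: its erythroid markers summed to 2752 CPM, with 476 and 1258 CPM in the other NEC libraries and 213 to 338 CPM in control. Fibroblast markers summed to 1944 CPM in NEC replicate 2, against 476 and 589 CPM in the other NEC libraries and 662 to 945 CPM in control. Its summed markers of proliferating cells were also the highest, at 494 CPM, where NEC as a whole ran from 226 to 494 CPM and control from 259 to 375 CPM. It was highest as well in smooth muscle markers, at 3058 CPM, against 1034 and 2037 CPM in the other NEC libraries and 880 to 2106 CPM in control, and in neuron and glia markers, at 54.5 CPM, against 27.6 and 38.3 CPM in the other NEC libraries and 30.1 to 45.3 CPM in control. Its epithelial markers were the lowest, at 9488 CPM, against 11550 and 14390 CPM in the other NEC libraries and 10990 to 13920 CPM in control. Neutrophil markers, highest in NEC replicate 2, summed to 3.37 to 29.4 CPM in NEC and 1.40 to 2.99 CPM in control, with Ly6g, Cxcr2, Elane or Mpo at 0 throughout a group. In such bulk RNA, fewer cells of a type and less RNA per cell cannot be told apart.

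Trp53 itself was low and variable. It stood at 17.1, 10.7 and 7.95 CPM in NEC replicates 1 to 3, against 16.0, 10.1 and 25.6 CPM in control replicates 1 to 3. The groups overlapped, since NEC replicate 1 lay above control replicates 1 and 2. NEC over control, its log2 fold change was -0.54 (SE 0.43, 95% interval -1.52 to 0.45, edgeR adjusted p = 0.610). It was -0.13 without control replicate 3, the library with the highest Trp53 level, and -0.89 without NEC replicate 1. Leaving out NEC replicate 3 gave -0.31 and leaving out control replicate 2 gave -0.81. Against control replicate 3 alone, without both controls that carried Xist, it was -1.10. The gene lies on chromosome 11 (69580359 to 69591873, plus strand) in GENCODE M21 on mm10, as do all positions of genes below.

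Cdkn1a, an inhibitor of cyclin-dependent kinases and the classical p53 target for cell-cycle arrest, had the largest positive log2 fold change of the 10. It stood at 314, 81.5 and 202 CPM in NEC replicates 1 to 3, against 79.4, 61.0 and 113 CPM in control replicates 1 to 3. NEC replicates 1 and 3 lay above every control library, while NEC replicate 2 lay among the controls, so the groups overlapped. Its log2 fold change was 1.24 (SE 0.48, 95% interval 0.12 to 2.35), a 2.35-fold difference, with an edgeR adjusted p of 0.277. Single libraries moved it from 0.74 without NEC replicate 1 to 1.61 without NEC replicate 2, where the adjusted p was 0.110. NEC replicate 2 is also the library with the lowest epithelial sum and the highest erythroid, fibroblast, smooth muscle, neuron and glia, neutrophil and proliferation sums, whose part in its lower Cdkn1a was not tested. The gene occupies 29090976 to 29100727 on the plus strand of chromosome 17, and a small share of its exons, 7.7% of their length, overlaps an unnamed transcript on the opposite strand.

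Ccng1, which encodes cyclin G1, a feedback regulator of p53 and MDM2, ran the other way. It stood at 54.1, 73.7 and 54.0 CPM in NEC replicates 1 to 3, against 98.3, 123 and 87.7 CPM in control replicates 1 to 3. All 3 NEC libraries lay below all 3 control libraries. The log2 fold change of -0.77 (SE 0.24, 95% interval -1.33 to -0.20) had the smallest p of the 10 members, with an edgeR adjusted p of 0.198. Leaving out single libraries kept it between -0.94 and -0.62. Ccng1 lies on the minus strand of chromosome 11, from 40748552 to 40755311.

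Cdkn1a and Ccng1 are shown with their promoter sequence because, of all the members, these carry the closest matches to the binding sequence of p53 while their log2 fold changes had opposite signs. The RefSeq promoter windows on GRCm38.p6, of 300 bases from 250 before to 50 after each annotated start, were searched for the p53 consensus site, 2 abutting half-sites of 10 bases, which reads alike on both strands. Of the 10 members, 8 had a window, with 11 windows in all, and Zmat3 and Pmaip1 had none. In capitals stands the best match of 20 bases in each sequence below, written 5′ to 3′ on the strand of the gene. The first lies at chr17:29090903-29090972 on the plus strand, with its match centred at position -41 from the upstream start of Cdkn1a. The second lies at chr11:40755437-40755506 on the minus strand, with its match centred at position -185 from the start of Ccng1.
Cdkn1a: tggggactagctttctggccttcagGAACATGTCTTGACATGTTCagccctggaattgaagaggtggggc
Ccng1: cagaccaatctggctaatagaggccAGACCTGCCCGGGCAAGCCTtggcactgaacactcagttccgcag
Each differed from the consensus at 1 position, a match at least as close as that in 0.0883% of all 32851 windows. The Cdkn1a match also holds CATG at the core of both half-sites, 6 bases apart, a pattern that reads alike on both strands. It is found, at any place in the window, in 0.712% of windows. No other member window holds it within its best match. Matches with 3 mismatches, a closeness reached by 6.29% of windows, were present for Bbc3, Trp53 and Bax. That of Bbc3 lies at chr7:16309461-16309530, between Bbc3 exons that end at 16308508 and start at 16309616 in GENCODE M21, and that of Trp53 upstream of its start at chr11:69580259-69580328, both on the plus strand.
Bbc3: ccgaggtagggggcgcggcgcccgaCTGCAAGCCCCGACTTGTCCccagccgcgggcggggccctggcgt
Trp53: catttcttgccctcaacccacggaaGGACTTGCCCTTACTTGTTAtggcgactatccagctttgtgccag
The windows of Mdm2, Fas and Phlda3, and the downstream start of Cdkn1a, had no match with fewer than 5 mismatches, which says only that these letters are not in these windows. A match in sequence does not show binding, and binding was not measured.

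Mdm2, the ubiquitin ligase that both answers to p53 and restrains it, stood at 47.3, 32.6 and 45.2 CPM in NEC replicates 1 to 3, against 35.8, 30.1 and 38.1 CPM in control replicates 1 to 3. NEC replicates 1 and 3 lay above all controls and NEC replicate 2 lay between them. This overlap was seen under 3 of the 4 scalings: with library size alone Mdm2 ran from 38.2 to 46.3 CPM in NEC and from 30.2 to 37.8 CPM in control. Its log2 fold change was 0.27 (SE 0.24, 95% interval -0.29 to 0.82, edgeR adjusted p = 0.653). Left-out libraries moved it to 0.17 without NEC replicate 1 or control replicate 2 and to 0.41 without NEC replicate 2, and it was 0.13 without control replicates 1 and 2. Zmat3, an RNA-binding protein gene, overlapped between the groups, at 10.3, 8.08 and 7.28 CPM in NEC replicates against 9.29, 5.63 and 11.0 CPM in control replicates, and its log2 fold change was -0.02 (SE 0.34, 95% interval -0.80 to 0.76). Phlda3, whose product restrains AKT signalling, was the least counted member, with 225 to 782 counts in a library. It stood at 3.15, 8.82 and 3.43 CPM in NEC replicates 1 to 3, against 5.86, 3.23 and 4.57 CPM in control replicates 1 to 3. NEC replicate 2 alone stood above the controls, and the log2 fold change of 0.17 (SE 0.48, 95% interval -0.95 to 1.29) became -0.48 without that library. Mdm2 lies on chromosome 10 (117688875 to 117710758, minus strand), Zmat3 on chromosome 3 (32334792 to 32366014, minus strand) and Phlda3 on chromosome 1 (135766119 to 135769136, plus strand).

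**Figure D2:**
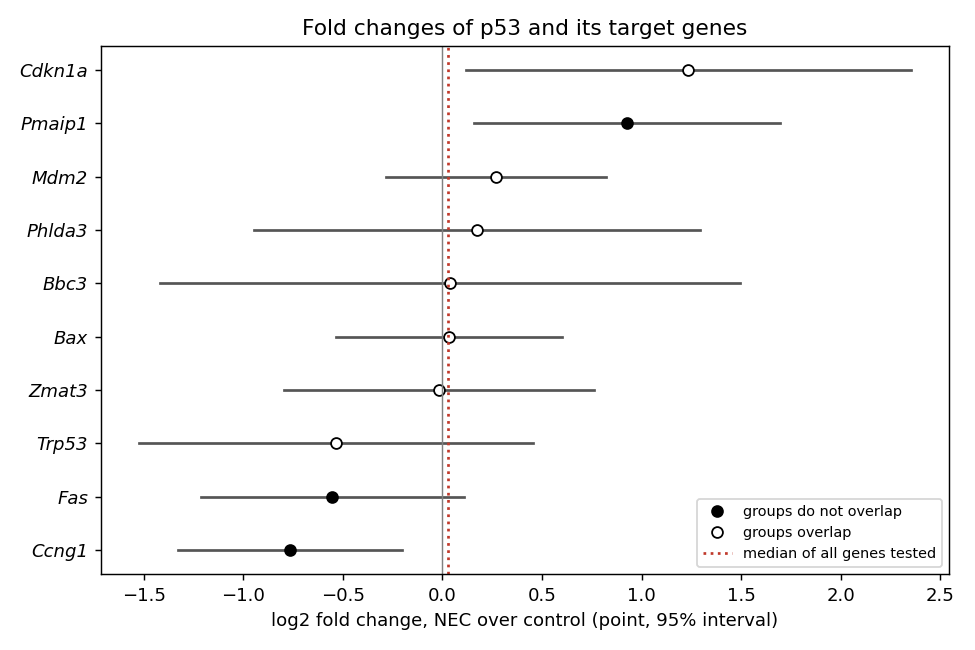
Log2 fold change of NEC over control for each gene (horizontal axis), with its 95% interval from the edgeR fit. Filled points mark the 3 genes whose groups do not overlap, and the dotted line is the median of all genes tested. The intervals of Cdkn1a, Pmaip1 and Ccng1 leave out 0, though none of the 10 passed the adjusted test.

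Among the mitochondrial apoptosis genes, Pmaip1, which encodes the BH3-only protein NOXA, was the member higher in every NEC library. It stood at 120, 77.9 and 188 CPM in NEC replicates 1 to 3, against 63.3, 65.4 and 74.3 CPM in control replicates 1 to 3. The gap between the groups was narrow, between 77.9 CPM in NEC replicate 2 and 74.3 CPM in control replicate 3, but the groups did not overlap under any of the 4 scalings tried. Fitted on the log2 scale, the change was 0.93 (SE 0.33, 95% interval 0.16 to 1.70), a 1.90-fold difference, with an edgeR adjusted p of 0.241. Without NEC replicate 3 it was 0.55, and leaving out NEC replicate 2 gave 1.17. NEC libraries spanned a 2.42-fold range, while the controls spanned 1.17-fold. The gene lies on chromosome 18 (66458533 to 66465565, plus strand).

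Bbc3, which encodes PUMA, the other BH3-only protein of the list, had no clear direction. It stood at 29.2, 4.60 and 22.7 CPM in NEC replicates 1 to 3, against 19.2, 10.5 and 25.3 CPM in control replicates 1 to 3. Its level in NEC replicate 2 was the lowest of the 6 libraries, and the NEC libraries spanned a 6.34-fold range, the widest of any member. Its log2 fold change was 0.04 (SE 0.63, 95% interval -1.419 to 1.496), which allows a change of either sign. Bax, a pore-forming effector of mitochondrial apoptosis, stood at 120, 80.9 and 95.7 CPM in NEC replicates 1 to 3, against 111, 99.4 and 80.1 CPM in control replicates 1 to 3. The groups of Bax overlapped, with NEC replicate 1 the highest and control replicate 3 the lowest of the 6 libraries, and the log2 fold change was 0.03 (SE 0.25, 95% interval -0.54 to 0.60). Bbc3 and Bax both lie on chromosome 7, from 16308393 to 16318205 on the plus strand and from 45461697 to 45466898 on the minus strand. Of the exon length of Bax, 12.2% is shared with the gene model Gm45808 on the same strand.

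Fas, the death receptor gene, stood at 13.0, 12.0 and 20.6 CPM in NEC replicates 1 to 3, against 20.7, 21.9 and 24.5 CPM in control replicates 1 to 3. All NEC libraries lay below all controls, but NEC replicate 3 and control replicate 1 were almost level, at 20.63 and 20.67 CPM. Its log2 fold change was -0.55 (SE 0.29, 95% interval -1.22 to 0.11, edgeR adjusted p = 0.401), and it was -0.83 without NEC replicate 3. Fas is also made by lymphocytes, whose markers were scarce: T cell markers summed to 3.97 to 6.83 CPM in NEC and 5.14 to 22.7 CPM in control, and B cell markers to 1.90 to 3.11 and 2.07 to 7.59 CPM. None of the 9 T cell or 7 B cell markers was at 0 throughout a group, and their part in the lower Fas was not tested. The gene spans 34290666 to 34327772 on the plus strand of chromosome 19.

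**Figure D3:**
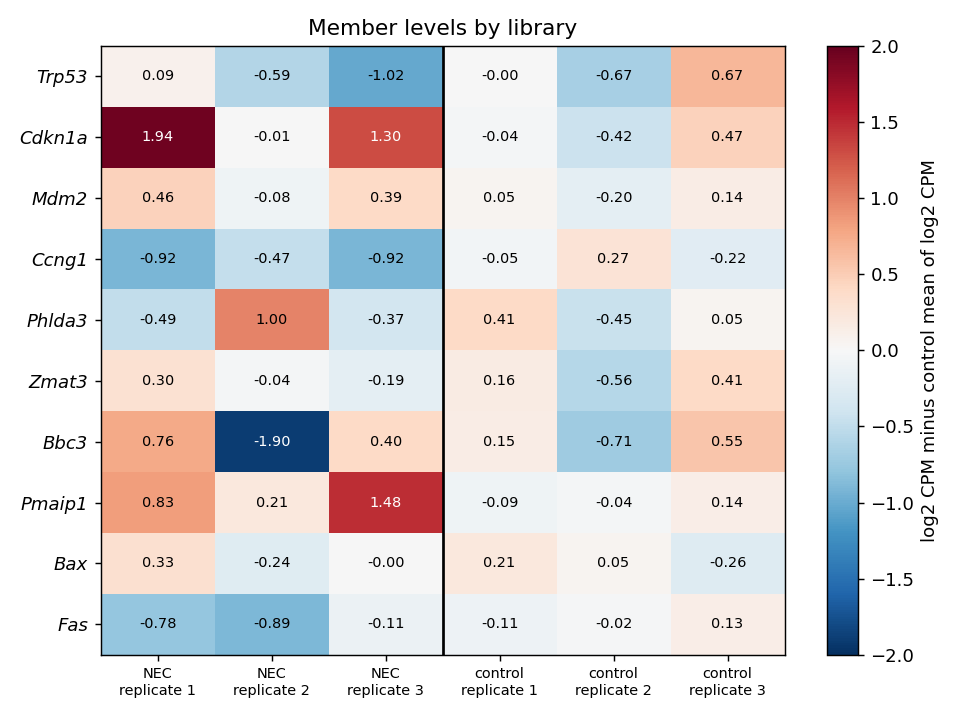
Log2 CPM of each gene in each library minus the mean log2 CPM of the control libraries (colour and printed value). NEC replicates 1 and 3 share high Cdkn1a (1.94 and 1.30) and low Ccng1 (-0.92 in both), whereas NEC replicate 2 has the lowest Bbc3 (-1.90) and the highest Phlda3 (0.996).

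The members varied between libraries inside both groups, though not all in 1 direction within a library. In NEC replicate 1 the log2 difference from the control mean was 1.94 for Cdkn1a but -0.92 for Ccng1. Relative to the mean of the controls, 7 members were higher in NEC replicate 1, 2 in NEC replicate 2 and 4 in NEC replicate 3. In control replicates 1 to 3 it was 5, 2 and 8 members. The median log2 difference of the members from that mean ran from -0.162 to 0.315 over NEC libraries. Over control libraries it ran from -0.311 to 0.141. Within NEC, 6 members, Cdkn1a, Mdm2, Bbc3, Pmaip1, Bax and Fas, were lowest in replicate 2. The labels also give each sample a code, which starts with AG181028 for NEC replicate 1 and control replicate 3 and with AG181017 for the other 4. For 5 members, Trp53, Cdkn1a, Mdm2, Zmat3 and Bbc3, these AG181028 libraries were the highest of their own groups. The share of all genes with this pattern, lowest in NEC replicate 2 within NEC, or above the control mean in each library, was not computed. Over all genes tested, deviations of the AG181028 libraries from their group means correlated at 0.472. That was the highest value of any NEC library with any control library, with NEC replicate 2 and control replicate 2 next at 0.392. Deviations from the mean of 3 libraries sum to 0, which ties these values together. The members were not compared with other genes in this. The AG181028 libraries also had the largest total counts of their groups, 97445491 and 106304239.

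Within the 4 AG181017 samples the log2 difference between the means of log2 CPM, NEC minus control, was 0.88 for Cdkn1a, 0.91 for Pmaip1, -0.80 for Ccng1 and -0.44 for Fas. Between the single pair of AG181028 samples, which allows no test, it was 1.47, 0.70, -0.70 and -0.91 for the same genes. With the code as a term in the edgeR fit these genes had log2 fold changes of 1.16, 0.93, -0.76 and -0.56, and none of the 10 members passed. Without control replicate 1, which held Xist and Y-linked counts together, they were 1.19, 0.88, -0.80 and -0.61. Without both Xist-bearing controls, where the remaining control is assumed to vary as the NEC libraries do, they were 0.81, 0.79, -0.53 and -0.69.

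Compared per kilobase of exon, the members differed widely in level. In NEC the order by mean CPM per kb was Bax (62.8 ± 12.6, SD, n = 3), Cdkn1a (56.0 ± 32.8), Pmaip1 (47.2 ± 20.4), Ccng1 (17.3 ± 3.24), Bbc3 (8.86 ± 5.995), Mdm2 (8.21 ± 1.56), Fas (7.38 ± 2.29), Phlda3 (3.29 ± 2.05), Trp53 (2.94 ± 1.16) and Zmat3 (0.748 ± 0.136). In control it was Bax (61.4 ± 9.83, SD, n = 3), Ccng1 (29.4 ± 5.22), Pmaip1 (24.8 ± 2.14), Cdkn1a (23.8 ± 7.46), Fas (10.8 ± 0.938), Bbc3 (8.63 ± 3.49), Mdm2 (6.82 ± 0.811), Trp53 (4.27 ± 1.93), Phlda3 (2.92 ± 0.843) and Zmat3 (0.757 ± 0.241). Neighbours whose libraries did not overlap were, in NEC, Pmaip1 and Ccng1, Ccng1 and Bbc3, Fas and Phlda3, and Trp53 and Zmat3. In control they were Bax and Ccng1, Cdkn1a and Fas, and Phlda3 and Zmat3, and all other neighbours overlapped. Bax thus headed both groups and Zmat3 ended both, while Ccng1 stood below Cdkn1a and Pmaip1 in NEC and above them in control by mean level.

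Ratios of genes within a library do not depend on how libraries are scaled, and 3 were formed after the values had been seen, so they carry no test. Mdm2 over its relative Mdm4, which also restrains p53, was 4.39, 2.71 and 3.44 in NEC replicates 1 to 3, against 1.75, 1.62 and 1.47 in control replicates 1 to 3, on CPM per kb. Bax over its antagonist Bcl2 was 132, 81.7 and 96.0 in NEC replicates, against 171, 171 and 200 in control replicates. Cdkn1a over Trp53 was 20.9, 8.69 and 28.9 in NEC replicates, against 5.64, 6.86 and 5.04 in control replicates. For each ratio the groups did not overlap, with Mdm2 over Mdm4 and Cdkn1a over Trp53 higher in NEC and Bax over Bcl2 lower. The share of other gene pairs that separate in this way was not computed. Mdm4 alone was lower (log2 fold change -0.85) and Bcl2 alone higher (0.83) in every NEC library. The groups overlapped for Mdm2 (0.27) and Bax (0.03), and likewise for Cdkn1a and Trp53 taken singly.

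**Figure D4:**
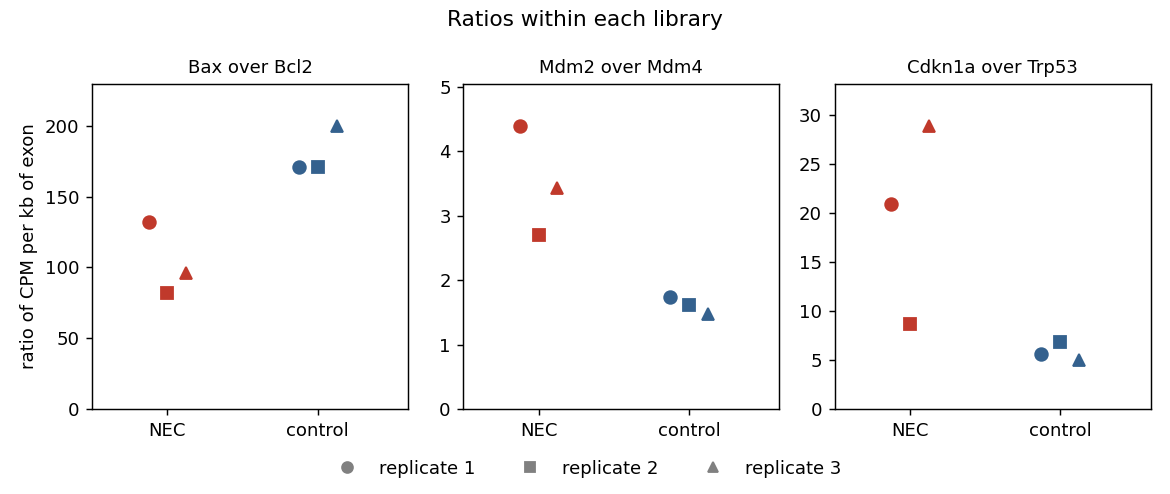
Ratios of CPM per kb of exon within each library (vertical axes start at 0), with the 3 NEC libraries left of the 3 control libraries. The Mdm2 to Mdm4 ratio runs from 2.71 to 4.39 in NEC and from 1.47 to 1.75 in control, and the Bax to Bcl2 ratio is lower in every NEC library. Mdm4 and Bcl2 separate the groups on their own, whereas Mdm2 and Bax do not.

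Other genes of the pathway were read from 7 lists with 111 genes, of which 107 were tested, each gene counted once. Of these, 1 was called, higher in NEC, against 0.261% of all genes tested called in that direction. Their log2 fold changes were positive for 55 and negative for 52, with a median of 0.006. The called gene was Plk3, a stress-responsive polo-like kinase gene and p53 target. Plk3 stood at 44.5, 41.5 and 64.6 CPM in NEC replicates 1 to 3, against 12.5, 8.29 and 12.5 CPM in control replicates 1 to 3. Every NEC library was above every control, and the log2 fold change was 2.18 (SE 0.29, 95% interval 1.49 to 2.86), a 4.52-fold difference, at an edgeR adjusted p of 0.0378. With single libraries left out it lay between 1.96 and 2.28, but the call was kept only without NEC replicate 2. Leaving out NEC replicate 1 gave an adjusted p of 0.0785, and leaving out NEC replicate 3 gave 0.163. Without control replicates 1, 2 or 3 it was 0.206, 0.0548 and 0.0743. Within the AG181017 samples the log2 difference of Plk3 was 2.35, and between the AG181028 pair it was 1.84. Of its exon length, 3.3% overlaps Tctex1d4 on the opposite strand.

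Of 17 targets in cell-cycle arrest and repair, Plk3 was the only one called, and 3 of the 17 had non-overlapping groups in each direction, against 10.8% of all genes tested with NEC higher and 11.6% with NEC lower. The stress sensors Sesn1 and Sesn2 had log2 fold changes of opposite sign, neither being called. Sesn1 stood at 135, 48.0 and 100 CPM in NEC replicates, against 39.6, 46.4 and 45.3 CPM in control replicates (log2 fold change 1.11, SE 0.37, edgeR adjusted p = 0.214). Sesn2 stood at 26.6, 23.5 and 18.9 CPM in NEC replicates, against 55.1, 36.7 and 66.4 CPM in control replicates (log2 fold change -1.20, SE 0.29, edgeR adjusted p = 0.110). Sfn, the 14-3-3 sigma gene, stood at 159, 91.4 and 241 CPM in NEC replicates, against 63.5, 36.5 and 83.0 CPM in control replicates (log2 fold change 1.42, SE 0.43, edgeR adjusted p = 0.179). It is made by epithelium, whose markers summed to 9488 to 14390 CPM in NEC and 10990 to 13920 CPM in control.

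Of 14 targets in apoptosis 0 were called, with 10 positive and 4 negative log2 fold changes. Aen, an apoptosis-enhancing nuclease gene, stood at 15.5, 15.6 and 16.0 CPM in NEC replicates, against 5.90, 6.54 and 7.21 CPM in control replicates. The libraries of each group lay close together, with a log2 fold change of 1.26 (SE 0.25, edgeR adjusted p = 0.0720). Casp1 (-1.18, SE 0.26, edgeR adjusted p = 0.0918), the inflammatory caspase gene, and Perp (-0.75, SE 0.26), a desmosomal p53 target, had values below 0 and lower levels in every NEC library. Macrophages are among the cells that make Casp1. The 9 macrophage markers summed to 226, 359 and 270 CPM in NEC replicates, against 420, 331 and 351 CPM in control replicates. The largest share of that sum was Csf1r, at 105 to 149 CPM in NEC and 245 to 319 CPM in control, the 1 marker with a log2 fold change below 0. The other 8 were above 0, and Cd163, at 2.02 to 5.33 CPM in NEC and 0.200 to 0.382 CPM in control, was called higher (edgeR adjusted p = 0.0396). Cd68 was higher in every NEC library without a call. For Adgre1, C1qa, C1qb, C1qc, Lyz2 and Mrc1 the groups overlapped. Of the exon length of Csf1r, 15.1% overlaps Hmgxb3 on the opposite strand. These markers were named after their values were seen, and their part in the lower Casp1 was not tested. The value of Ei24 was 0.29 (SE 0.20). Of 20 metabolic, secreted and other targets 0 were called, and the log2 fold changes with the smallest p were 1.03 for Tigar (SE 0.28), which slows glycolysis, 0.77 for Thbs1 (SE 0.26), -0.78 for the Kit ligand gene Kitl (SE 0.29) and 0.93 for Ddit4 (SE 0.38).

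In the list of p53 control genes and relatives, 0 of 11 tested were called. Trp53bp1, a chromatin adaptor of double-strand breaks, stood at 3.78, 6.94 and 7.24 CPM in NEC replicates, against 19.1, 20.8 and 17.0 CPM in control replicates. The groups lay far apart, with a log2 fold change of -1.66 (SE 0.33, edgeR adjusted p = 0.0720), though 15.0% of its exon length overlaps Tubgcp4 on the opposite strand. Mdm4 stood at 31.4, 35.1 and 38.3 CPM in NEC replicates, against 59.7, 54.2 and 75.4 CPM in control replicates (log2 fold change -0.85, SE 0.23, edgeR adjusted p = 0.135). The phosphatase gene Ppm1d, itself a p53 target, had a log2 fold change of 0.67 (SE 0.29). Cdkn2a, whose product ARF blocks MDM2, was barely detected, at 0.0524, 0.0451 and 0 CPM in NEC replicates and 0.273, 0.187 and 0.219 CPM in control replicates. Of 24 genes that sense damage or run the checkpoint 0 were called, with 12 positive and 12 negative log2 fold changes and a median of -0.002. Those with the smallest p were 0.77 for Atrip (SE 0.29), which shares exons with Trex1 on the same strand, 0.98 for Brca2 (SE 0.48), 0.52 for Atr (SE 0.26) and -0.69 for Chek2 (SE 0.35).

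Of 16 other BCL2 family genes tested 0 were called. Log2 fold changes of those with the smallest p were -1.28 for Bcl2l12 (SE 0.34), -0.76 for the killer Bok (SE 0.21), 1.32 for Bcl2l14 (SE 0.46) and 0.83 for the survival gene Bcl2 (SE 0.32). Bcl2 stood at 5.30, 5.76 and 5.79 CPM in NEC replicates, against 3.76, 3.38 and 2.33 CPM in control replicates. The other 7 inhibitors of cyclin-dependent kinases had values below 0, unlike Cdkn1a, and 0 were called. Of all 19176 genes tested, 9222 were below 0. The groups overlapped for Cdkn2b (-0.06, SE 0.36) and Cdkn3 (-0.35, SE 0.44), and Cdkn2a had only 5, 4 and 0 counts in NEC replicates 1 to 3. Cdkn1b, which holds cells in quiescence, stood at 31.1, 25.7 and 18.9 CPM in NEC replicates, against 63.9, 47.9 and 54.7 CPM in control replicates (log2 fold change -1.14, SE 0.26, edgeR adjusted p = 0.102). The log2 fold changes of Cdkn1c (-0.69, SE 0.24) and Cdkn2c (-0.87, SE 0.31) were also negative, with 30.7% of the exon length of Cdkn1c overlapping an antisense gene. Such overlaps on the opposite strand also cover 28.9% of Bcl2l12, by Gm15545, 14.1% of Bcl2l14 and 6.1% of Bcl2. The difference between the other inhibitors of cyclin-dependent kinases and Cdkn1a was not tested.

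**Figure D5:**
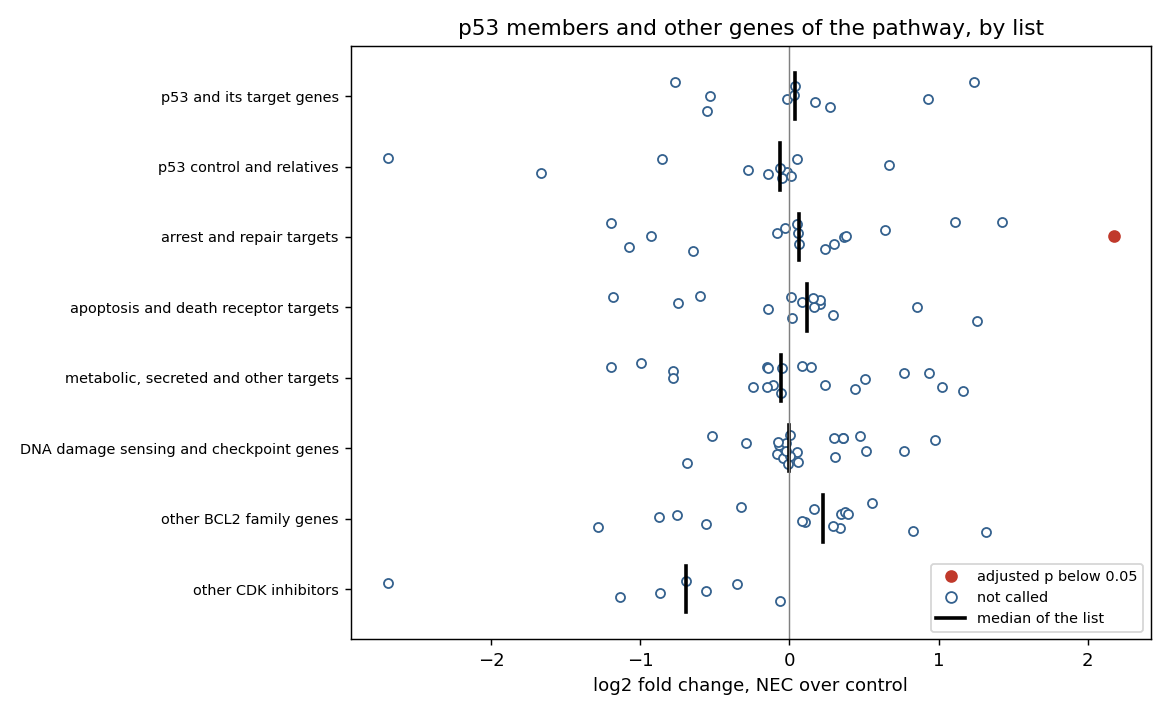
Log2 fold change of NEC over control (horizontal axis) for the 10 members and for each tested gene of the 7 lists, with the median of each list as a bar. The filled point is Plk3, the 1 gene called, and the other CDK inhibitors, with a median of -0.69, are the list whose values all lie below 0. Among them Cdkn2b lies near 0 (-0.06) and Cdkn2a was barely detected.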

How the data were processed

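RNA from intestine, isolated with TRIzol, was read in 150 bp pairs on a NovaSeq, per the labels' protocols. The authors deposited whole-number counts per Ensembl gene for 6 samples, and the submitters' processing notes name the build mm10. Aligner, counter, annotation and strandedness: not given in the sources used here. Reads of genes that overlap on opposite strands therefore cannot be separated. Symbols, positions and exon lengths came from GENCODE M21, which matched 54409 of 54446 identifiers. Counts of 4 to 40 that are multiples of 4 were 2.12 times as frequent as other values; the cause was not tested.

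Counts kept by filterByExpr (minimum count 10) were scaled by TMM and tested with the quasi-likelihood F test of edgeR 4.0.16 in R 4.3.3, NEC against control, without covariates, with Benjamini-Hochberg adjustment over all 19176 genes. A gene was called at an adjusted p below 0.05. CPM are TMM-scaled, and intervals are 95% intervals of the fit. A run on simulated counts checked that the largest planted changes were called more often than the smallest. No rate of missed or false calls is taken from it. Alternatives were DESeq2 1.42.0, limma-voom (limma 3.58.1), 3 other scalings, 2 other filters, robust=FALSE, counts divided by 4, the replicate number or sample code as a term, and subsets of libraries. Library pairs differed by far more than sampling noise. Members, lists and tests were chosen with earlier results of these data known. Named genes were the 10 members and, from each list, the 4 tested genes with the smallest p, among them the called gene. Rps27l, Gtse1 and the 3 ratios were added after values were seen. Also named outside this rule were Cdkn2b, Cdkn3, Ddb2, Trp63, Trp73 and marker, sex-linked and overlapping genes. Promoter sequences are from RefSeq on GRCm38.p6.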

Additional observations from a re-analysis of the deposited data

How the results depend on the processing

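All 10 members stayed uncalled in each of the 19 alternatives, and the lowest adjusted p any member reached was 0.0919, for Ccng1. Cdkn1a, Mdm2 and Pmaip1 stayed above 0 and Trp53, Ccng1 and Fas below 0 in all of them. The member median moved by less than its spread over NEC libraries (0.251), from -0.154 to 0.181 with 1 library left out. Members near 0 changed sign. Bax was -0.277 in the AG181017 samples alone, -0.134 without NEC replicate 1 and -0.093 without control replicate 3, and reached 0.155 without NEC replicate 2. Bbc3 was -0.426 without control replicates 1 and 2, -0.158 in the AG181017 samples, -0.280 with limma-voom, -0.242 with the replicate block, -0.013 with the sample code as a term, -0.430 and -0.113 without NEC replicates 1 and 3 and -0.241 without control replicate 2, and 0.499 without NEC replicate 2. Phlda3 was -0.477 without NEC replicate 2 and -0.024 without control replicate 2, and 0.427 without NEC replicate 1. Zmat3 was 0.019 in the AG181017 samples, 0.053 with library size alone, 0.009 with limma-voom, 0.024 with the replicate block, 0.021 and 0.089 without NEC replicates 2 and 3, and 0.035 and 0.193 without control replicates 1 and 3, and -0.251 without control replicate 2. The cause was not tested.

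Of all genes, 135 were called, against 1452 with DESeq2, 247 without a low-count filter, 54 with the replicate block, 243 with the sample code as a term, 25 in the AG181017 samples, 1 without control replicates 1 and 2, and 0 to 106 with 1 library left out (0 without control replicate 1). Samples with the same replicate number did not deviate together in all pairs (correlations -0.16, 0.392 and -0.018), so the replicate block, which called 0 members and kept Plk3, pairs samples by number only. Pathway genes called, 1 here, numbered 12 with DESeq2 (7.59% of all genes called), 2 with the code as a term, 0 in the AG181017 samples or without control replicates 1 and 2, and 0 to 1 with 1 library left out. The 12 were Plk3, Aen, Sfn and Tigar with positive and Bcl2l12, Bok, Casp1, Cdkn1b, Ddb2, Mdm4, Sesn2 and Trp53bp1 with negative edgeR log2 fold changes. With 3 samples a group, changes of the size seen for the members could be missed.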

Other observations

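Of the other pathway genes, Rps27l and Gtse1 also had a promoter match with 1 mismatch to the p53 consensus, and they are named for that match after their values were seen. Rps27l, a ribosomal protein gene of the p53 response, stood at 111, 179 and 184 CPM in NEC replicates 1 to 3, against 156, 182 and 90.3 CPM in control replicates 1 to 3. Gtse1, which restrains p53 in dividing cells, stood at 2.84, 1.93 and 3.09 CPM in NEC replicates, against 2.22, 2.18 and 3.10 CPM in control replicates. Both overlapped between the groups, with log2 fold changes of 0.15 (SE 0.33) and 0.07 (SE 0.37).

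The p53 relatives Trp63 and Trp73 were too low to test. Trp63 had 0, 4 and 0 counts in NEC replicates and 4, 5 and 0 counts in control replicates, and Trp73 had 4, 0 and 18 counts in NEC replicates and 0 counts in every control replicate.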
